A study of Rattus norvegicus with 6 samples.

Results

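Genes of neuronal and autonomic fate were compared between Schwann cell precursors (SCPs) and repair Schwann cells (RSCs). The set holds 37 genes, matched by symbol, of the 29468 gene symbols in the deposited tables. It was divided by role into 6 proneural and sensory transcription factors, 8 autonomic and neuroendocrine genes, and 23 neuronal effector genes, which encode proteins of the neuronal cytoskeleton, RNA processing and the synapse. Membership rests on the gene names and on no threshold of level.

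As background, peripheral neurons and Schwann cells both descend from the neural crest. Neurogenins direct crest cells to sensory neurons, and Phox2a and Hand2 are factors that direct them to autonomic neurons and chromaffin cells, whose catecholamines are made by the enzymes encoded by Th and Dbh. SCPs are the glial cells along embryonic nerves, and they are known as a source of parasympathetic neurons and chromaffin cells in the embryo. RSCs are the form that adult Schwann cells take in an injured nerve.

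All 6 samples are labelled as from wild type LEWIS rats, while the study's methods describe the cells used for grafting as from transgenic LEWIS rats that express RFP, a red fluorescent protein. The 3 SCP samples were prepared from untreated sciatic nerves and brachial plexus at embryonic day 14. The 3 RSC samples were prepared from the distal part of the sciatic nerve in rats 10 weeks old, 1 week after the nerve was cut. Both were dissociated nerve cells from which the readily adherent cells had been removed by a short seeding, so neither group was sorted by a marker, and age, nerve and injury differ together between them. Nothing states which animals each preparation came from, so p-values measure the spread between preparations.

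Levels are given in FPKM (fragments by transcript kilobase, corrected for the total of mapped fragments), summed over the named transcripts of a gene, and so are per length and can be set side by side between genes. The absolute depth is unknown, and no detection limit can be given. The coverage per FPKM, which follows depth, relative to SCP 2, the highest, lay between 0.878 and 1.00 in SCPs and between 0.789 and 0.841 in RSCs, so low values were somewhat better covered in SCPs. Transcripts assembled without a gene name held 26.1% to 31.9% of the FPKM in SCPs and 18.6% to 23.4% in RSCs. Their levels were added to the gene of the same locus only where this is stated.

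The defining markers of the cells were checked first. Sox10, the transcription factor of the Schwann cell lineage, was at 179, 175 and 181 FPKM in SCPs and 149, 143 and 143 in RSCs. S100b, a marker of maturing Schwann cells, was at 3.21, 11.7 and 19.3 in SCPs and 924, 782 and 843 in RSCs. Of 9 Schwann cell markers, 1 was higher in SCPs and 4 in RSCs at p under 0.01.

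Markers of other cell types also differed between the groups. The summed level of 8 leukocyte markers was 13.3 to 39.7 FPKM in SCPs and 2197 to 2643 in RSCs, and all 8 were over 4-fold higher in RSCs. That of 6 fibroblast markers was 641 to 1020 in SCPs and 5360 to 8011 in RSCs, with 5 higher in RSCs. The sum of 5 skeletal muscle genes was 53.7 to 189 in SCPs and 23.2 to 28.3 in RSCs, and 4 of the 5 were higher in SCPs, while Des, the muscle intermediate filament desmin, was higher in RSCs and made up most of the RSC sum. In bulk samples, fewer cells of a type and less RNA per cell cannot be told apart.

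Markers of neurons were low. The sum of 9 sensory neuron markers was 7.94, 11.5 and 12.5 FPKM in SCPs and 5.78, 5.44 and 4.56 in RSCs. Of these, P2rx3, an ATP receptor of nociceptors, was listed at 0 throughout, Scn10a, a sodium channel of nociceptors, was at 0.0817 in SCP 1 and 0 elsewhere, and Ntrk3, the receptor of neurotrophin 3, made up most of the sum in 5 samples. The sum of 6 motor neuron markers was 0.967, 1.44 and 1.45 in SCPs and 0 in each RSC sample, with the motor neuron factors Mnx1, Lhx3 and Lhx4 at 0 throughout. The sum of 5 neural tube markers did not exceed 0.987 in any sample, and Pax6 was at 0. The part of these neuronal markers and of the muscle genes in the differences below was not tested.

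Most of the neuronal and autonomic genes were scarcely expressed. Of the 37, 18 had a mean of at least 1 FPKM in SCPs and 8 in RSCs. The proneural factor Neurog2, the autonomic factor Phox2a and the synaptic vesicle protein gene Syn1 were listed at 0 in all 6 samples, and 11 genes were at 0 in every RSC sample, these 3 included. The mean was higher in SCPs for 31 genes and higher in RSCs for Mapt, Gap43 and Syt4.

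**Figure D1:**
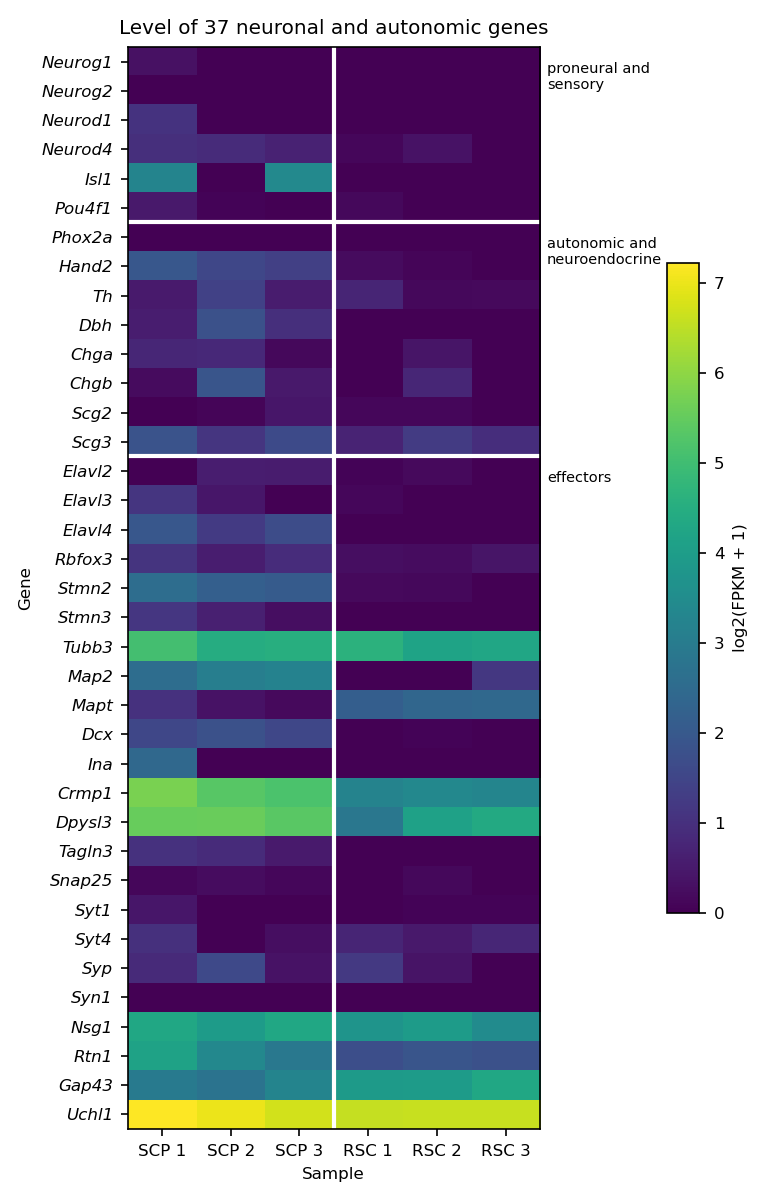
Level of each of the 37 genes (rows, grouped by role) in each of the 3 SCP and 3 RSC samples (columns), as log2(FPKM + 1) by color. Most rows are dark in all samples, Uchl1, Crmp1, Dpysl3, Tubb3 and Nsg1 are the brightest in SCPs, and only Mapt and Gap43 are brighter in all 3 RSC samples than in all 3 SCP samples.

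The groups were compared with limma on log2(FPKM + 1) over the 13003 genes whose mean of all 6 samples reached 1 FPKM, and differences are given as RSC minus SCP with adjusted p-values over all of them. Of the 37 genes, 15 entered the test and 22 were too low. Of those tested, 8 were higher in SCPs at p under 0.01 (Hand2, Elavl4, Stmn2, Map2, Dcx, Crmp1, Dpysl3 and Rtn1), as were 22.4% of all tested genes, and 2 were higher in RSCs (Mapt and Gap43), as were 18.1% of all. The other 5 (Isl1, Scg3, Tubb3, Nsg1 and Uchl1) were not called. Differences of over 4-fold on this scale were found for 3 in SCPs (Stmn2, Map2 and Crmp1), against 3.78% of all tested genes, and for none in RSCs, against 7.81%. Without SCP 1, however, Mapt was over 4-fold higher in RSCs (log2 fold change 2.05).

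These shares describe genes that were kept in part by the difference itself. Of the 15, 8 passed the filter with a mean under 1 FPKM in one of the groups, which was the RSC group for 7 of them. Of the 7 genes whose mean reached 1 FPKM in both, 3 were higher in SCPs (Crmp1, Dpysl3 and Rtn1) and 1 in RSCs (Gap43). The median log2 fold change was -1.60 over the 15 tested, beside -0.17 over all tested genes. Over the 34 genes above 0 in any sample it was -0.51. That value includes genes under the filter, so it has no like value over all genes here.

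Over all 37 genes, tested or not, the 3 SCP values lay above the 3 RSC values for 15 genes and below them for 2, and the groups overlapped for 20. Of all 20494 symbols above 0 in a sample, 26.9% had the SCP values on top and 19.6% the RSC values. When unnamed transcripts were added to the gene of their locus, 12 of the 37 genes gained expression in at least 1 sample. With them added, 9 genes were higher in SCPs, beside 34.2% of the genes tested there, and 2 in RSCs, beside 23.2%.

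**Figure D2:**
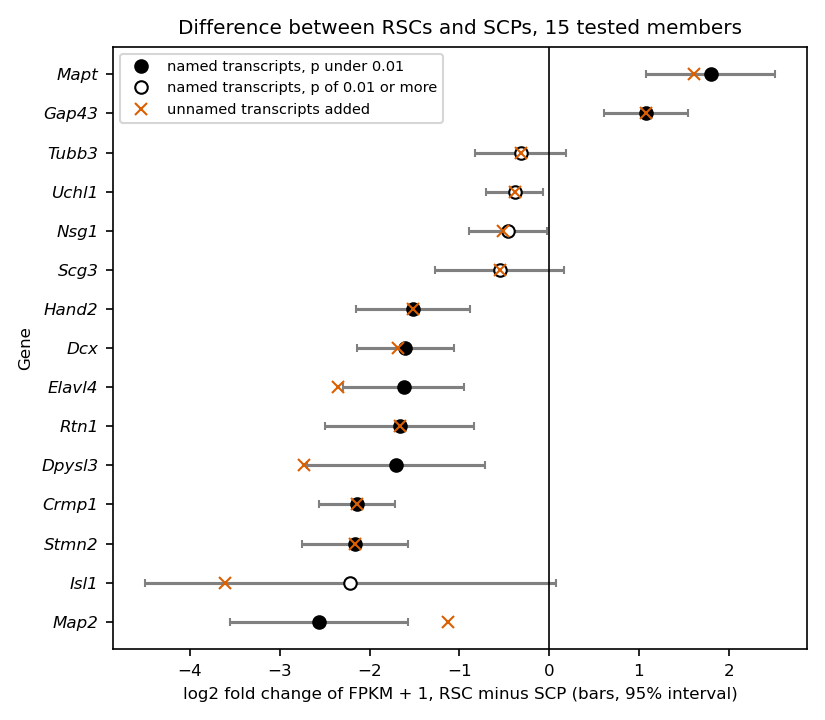
Difference between RSCs and SCPs for the 15 tested genes (rows) as the log2 fold change of FPKM + 1 with its 95% interval (bars). Filled circles had p under 0.01, open circles did not, and crosses give the difference after unnamed transcripts were added, which moves Map2 from -2.56 to -1.12 and Isl1 from -2.21 to -3.61.

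Of the 6 proneural and sensory factors, Isl1 was the most highly expressed. Isl1 encodes a LIM homeodomain factor of sensory, sympathetic and motor neurons that is also known from the mesenchyme of the embryonic hindlimb field. Its named transcript was at 8.51, 0 and 9.49 FPKM in SCPs and at 0 in all 3 RSC samples, so that it overlapped RSCs by the 0 of SCP 2 (log2 fold change -2.21, SE 0.93, adjusted p = 0.10). SCP 2 instead held 3 unnamed transcripts at this locus (chr2:48488911-48501217, rn6), at 3.60, 3.35 and 3.46 FPKM. Cufflinks, the program that estimated the levels, marked its estimate of the named transcript as LOWDATA in 2 of the 6 samples. With unnamed transcripts added, Isl1 was at 14.1, 10.4 and 9.49 in SCPs and 0 in RSCs, with every SCP sample above every RSC sample (-3.61, SE 0.18, adjusted p = 1.1e-05). Because RSCs are listed at 0, the size of both differences depends on the 1 that was added before the logarithm.

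The other 5 factors reached 1.06 FPKM at most. Neurod4, a factor of differentiating neurons, was at 0.981, 0.840 and 0.603 in SCPs and 0.0992, 0.271 and 0 in RSCs, and its groups did not overlap. Neurog1, the proneural factor of sensory lineages, was at 0.260 in SCP 1 and at 0 in the other 5 samples. Neurod1, a proneural target of the neurogenins, was at 1.06 in SCP 1 and likewise 0 elsewhere. Pou4f1, the sensory factor also called Brn3a, was at 0.400, 0.0467 and 0 in SCPs and 0.122, 0 and 0 in RSCs, so its groups overlapped. None of these entered the test.

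Of the 8 autonomic and neuroendocrine genes, Hand2 was higher in SCPs. Hand2 encodes a basic helix-loop-helix factor of sympathetic neurons, which is known from limb bud and heart as well. It was at 2.92, 1.88 and 1.57 FPKM in SCPs and 0.157, 0.0719 and 0 in RSCs. Every SCP sample lay above every RSC sample (mean 2.12 ± 0.706 against 0.0764 ± 0.0787, SD, n = 3; log2 fold change -1.52, SE 0.26, adjusted p = 0.0047). With 0.1 in place of 1 added before the logarithm, the difference was -3.71.

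The catecholamine enzymes of this set, Dbh and Th, were at low levels in SCPs. Dbh, dopamine beta-hydroxylase, was at 0.502, 2.44 and 0.971 FPKM in SCPs and listed at 0 in all RSC samples. With unnamed transcripts SCP 2 rose to 4.68, Dbh entered the test, and its difference was -1.36 (SE 0.49, adjusted p = 0.044, unadjusted p above 0.01). Th, tyrosine hydroxylase, which catalyses the first step, was at 0.440, 1.64 and 0.464 in SCPs and 0.667, 0.122 and 0.129 in RSCs. The Th groups overlapped, with RSC 1 above 2 of the SCP samples.

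The granins, proteins of secretory granules, did not separate the groups. Scg3, a granin that binds chromogranin A in granules, was the only tested one, at 2.61, 1.16 and 2.05 FPKM in SCPs and 0.644, 1.37 and 0.934 in RSCs (log2 fold change -0.55, 95% interval -1.27 to 0.17, adjusted p = 0.18). Chga and Chgb, the chromogranins, reached 0.763 and 2.71 in SCPs and 0.339 and 0.718 in RSCs, and Scg2 reached 0.346 and 0.0998. All 4 overlapped between the groups. Of the 7 autonomic genes above 0 in SCPs, SCP 2 was the highest SCP sample for 4 (Th, Dbh, Chga and Chgb).

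Among the effectors, the genes of newly formed neurons Stmn2 and Dcx were near 0 in RSCs. Stmn2, a regulator of microtubules in growth cones, was at 5.0, 3.51 and 3.19 FPKM in SCPs and 0.126, 0.115 and 0 in RSCs (chr2:95424251-95471900). The lowest SCP sample lay far above the highest RSC sample, and the ratio of the means was 48.4 (log2 fold change -2.16, SE 0.24, adjusted p = 0.00088). Dcx, doublecortin, a microtubule-binding protein of migrating neurons, was at 1.89, 2.47 and 1.92 in SCPs and 0, 0.0441 and 0 in RSCs. Its groups did not overlap either (-1.60, SE 0.22, adjusted p = 0.0020). The size of such differences depends on the 1 that was added, and with 0.1 in its place they were -4.53 for Stmn2 and -4.27 for Dcx.

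The Elavl genes encode RNA-binding proteins, of which Elavl2, Elavl3 and Elavl4 are the neuronal members. Elavl4 was at 2.92, 1.32 and 2.2 FPKM in SCPs and at 0 in all RSC samples, so the groups did not overlap (log2 fold change -1.62, SE 0.28, adjusted p = 0.0046; -4.42 with 0.1 added). With unnamed transcripts it was at 5.18, 3.43 and 3.81 in SCPs and still 0 in RSCs (-2.35, SE 0.18, adjusted p = 7e-05). Elavl2 and Elavl3 were at 0 to 1.18 in SCPs and 0 to 0.126 in RSCs, and their groups overlapped. With unnamed transcripts Elavl2 was at 1.27, 0.498 and 0.473 in SCPs, above all RSC values. Rbfox3, the splicing factor known as NeuN, was at 1.10, 0.504 and 0.905 in SCPs and 0.199, 0.181 and 0.336 in RSCs, with the SCP values above the RSC values but too low for the test.

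REST, a repressor of neuronal genes in non-neuronal cells, binds a sequence called RE1 that is made of a left and a right segment. RefSeq promoters (assembly GRCr8, 250 bases before to 50 after the start) were found for 31 of the 37 genes, 7 of the 10 called ones among them, and were searched on both strands. The left segment TTCAGCACC stood in those of Elavl4 and Scg2 and in 0.356% of all 33469 promoters. The right segment GGACAGC stood in those of Rtn1, Scg2 and Tubb3 and in 6.59% of all. Only 16 promoters, 0.048% of all, held both, and Scg2 was the only one of these 31 genes among them. The E-box CAGATG, a sequence that basic helix-loop-helix factors can bind, stood in those of Chgb, Hand2, Stmn3 and Tagln3 and in 16.6% of all. The promoters with the left segment are shown because they are the ones in which that rarer sequence was found, with the segments in capitals as they read on this strand (bases 107 to 115 of Elavl4, 182 to 188 for the right and 189 to 197 for the left segment of Scg2). A match is a description of the letters and not of binding. Elavl4 was low in SCPs and listed at 0 in RSCs, and Scg2 was near 0 in both kinds of cells.
Elavl4, chr5:130367614-130367913, minus strand: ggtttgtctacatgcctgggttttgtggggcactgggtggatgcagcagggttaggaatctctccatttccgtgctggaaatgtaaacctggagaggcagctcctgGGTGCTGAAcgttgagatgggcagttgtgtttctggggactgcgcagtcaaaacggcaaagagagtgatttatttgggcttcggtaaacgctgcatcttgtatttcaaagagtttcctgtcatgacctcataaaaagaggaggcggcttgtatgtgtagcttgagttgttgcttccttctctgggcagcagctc
Scg2, chr9:88256817-88257116, minus strand: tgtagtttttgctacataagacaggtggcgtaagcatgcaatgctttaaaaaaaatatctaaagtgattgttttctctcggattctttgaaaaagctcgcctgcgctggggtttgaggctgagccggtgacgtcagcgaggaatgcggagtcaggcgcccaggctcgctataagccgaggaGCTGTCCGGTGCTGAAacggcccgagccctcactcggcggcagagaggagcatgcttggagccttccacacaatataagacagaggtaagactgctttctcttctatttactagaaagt

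Crmp1 and Dpysl3 encode collapsin response mediator proteins, which link semaphorin signals to the cytoskeleton of growing axons, and they were expressed well above the genes so far. Crmp1 was at 53.6, 39.7 and 35.2 FPKM in SCPs and 8.44, 9.27 and 8.69 in RSCs (chr14:78266931-78312778). All SCP samples exceeded all RSC samples, 4.87-fold in the means (42.8 ± 9.55 against 8.80 ± 0.425, SD, n = 3; log2 fold change -2.14, SE 0.17, adjusted p = 0.00028). After median-of-ratios scaling this difference was -1.94 and without SCP 1 it was -1.97, both below 4-fold.

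Dpysl3 was at 45.2, 46.1 and 40.4 FPKM in SCPs and 6.19, 16.4 and 19.9 in RSCs (chr18:37716433-37819347). The groups did not overlap, but the RSC samples were far apart (log2 fold change -1.70, SE 0.40, adjusted p = 0.016). The call at p under 0.01 was lost without SCP 1, SCP 2, SCP 3 or RSC 2 (adjusted p = 0.052, 0.052, 0.043 and 0.033). The spread in RSCs followed the naming of a transcript that starts further downstream, which was named in RSC 2 and RSC 3 and unnamed in RSC 1 and in all SCP samples. With unnamed transcripts added, Dpysl3 was at 148, 127 and 125 in SCPs and 21.5, 16.4 and 19.9 in RSCs (-2.73, SE 0.12, adjusted p = 8.3e-06).

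Both starts of Dpysl3 were lower in RSCs. Transcripts from the upstream start (position 37819347, read on the minus strand) were at 45.2, 46.1 and 40.4 FPKM in SCPs and 6.19, 5.58 and 7.18 in RSCs, 6.95-fold apart in the means. Those from the downstream start (37776453) were at 103, 80.7 and 84.8 in SCPs and 15.3, 10.8 and 12.7 in RSCs, 6.90-fold apart. Neither start overlapped between the groups. These values of single transcripts were not tested, and they rest on how Cufflinks divided reads between overlapping transcripts. The named transcripts of both starts were each marked LOWDATA by Cufflinks in 4 of the 6 samples. RefSeq also lists 2 promoters of the gene on GRCr8, printed here because both starts were in use. Neither held a searched sequence, so no letters are in capitals, and their match to the rn6 starts was not made base by base.
Dpysl3, chr18:35731103-35731402, minus strand: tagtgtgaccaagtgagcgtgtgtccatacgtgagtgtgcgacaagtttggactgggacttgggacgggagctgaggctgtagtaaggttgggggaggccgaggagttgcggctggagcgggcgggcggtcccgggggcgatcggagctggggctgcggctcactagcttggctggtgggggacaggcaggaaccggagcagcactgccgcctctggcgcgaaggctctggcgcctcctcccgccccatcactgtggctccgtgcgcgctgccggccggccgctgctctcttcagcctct
Dpysl3, chr18:35688462-35688761, minus strand: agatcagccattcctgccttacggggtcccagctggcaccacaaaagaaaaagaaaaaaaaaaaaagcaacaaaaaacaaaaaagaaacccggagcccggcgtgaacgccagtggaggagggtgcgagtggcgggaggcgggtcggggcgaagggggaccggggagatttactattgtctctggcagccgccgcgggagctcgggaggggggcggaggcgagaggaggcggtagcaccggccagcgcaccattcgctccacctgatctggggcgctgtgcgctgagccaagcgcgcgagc

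**Figure D3:**
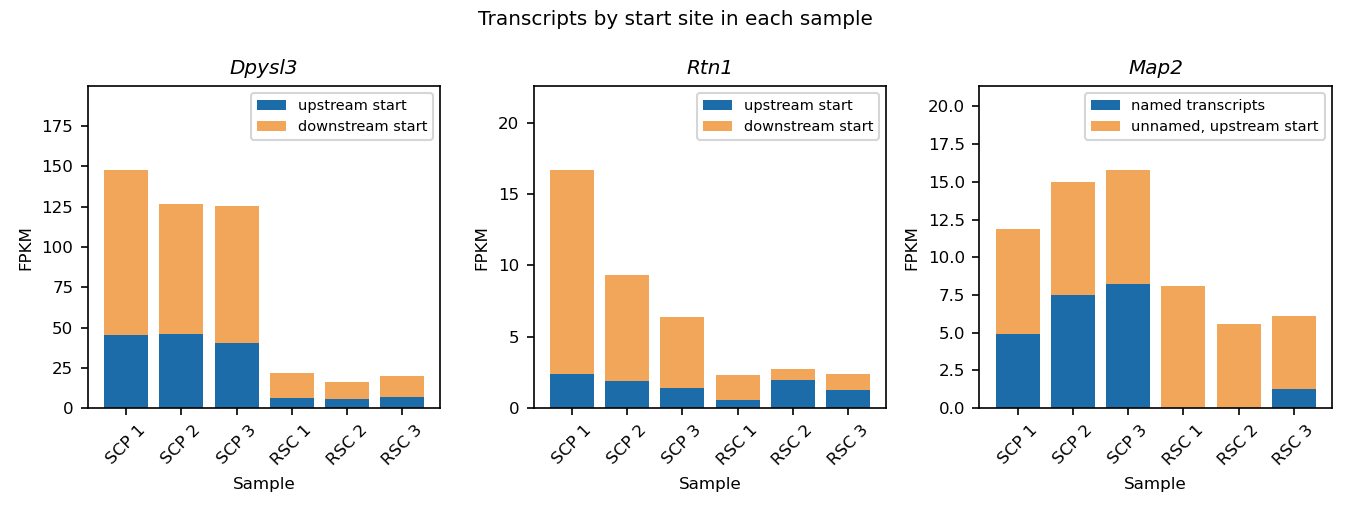
FPKM in each sample (bars) of Dpysl3, Rtn1 and Map2, divided by transcript start or, for Map2, into named transcripts and the unnamed ones that start upstream of every named one. Both parts of the Dpysl3 bars are low in RSCs, the downstream part of Rtn1 carries most of its difference, and the unnamed part of Map2 is of like height in SCPs and RSCs. A further unnamed Map2 transcript of SCP 1, at 3.46 FPKM within the gene, is not drawn.

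Rtn1, a reticulon of the endoplasmic reticulum that is abundant in neurons, was at 16.7, 9.36 and 6.40 FPKM in SCPs and 2.35, 2.72 and 2.43 in RSCs. The SCP samples were spread widely but lay above all RSC samples (log2 fold change -1.66, SE 0.34, adjusted p = 0.0090). Its p was no longer under 0.01 without SCP 2, RSC 1, RSC 2 or RSC 3 (adjusted p = 0.029, 0.033, 0.03 and 0.033). The short transcript, from a downstream start, was at 14.3, 7.48 and 4.99 in SCPs and 1.80, 0.751 and 1.17 in RSCs. The long transcript was at 2.38, 1.88 and 1.41 in SCPs and 0.546, 1.97 and 1.25 in RSCs. The short one was 7.20-fold apart in the means without overlap, and the long one was 1.5-fold apart with RSC 2 above 2 of the SCP samples.

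The microtubule-associated proteins of neurons moved in opposite directions. Map2, which stabilises microtubules in dendrites, was at 4.93, 7.53 and 8.26 FPKM in SCPs and 0, 0 and 1.26 in RSCs (chr9:73334908-73462972). The groups did not overlap (log2 fold change -2.56, SE 0.40, adjusted p = 0.0034; -4.84 with 0.1 added). Mapt, which encodes tau, the microtubule-associated protein of axons, was at 1.04, 0.284 and 0.132 in SCPs and 3.42, 4.2 and 4.45 in RSCs (chr10:92288962-92386517). All RSC samples lay above all SCP samples, 8.27-fold in the means (1.80, SE 0.29, adjusted p = 0.0040; 3.13 with 0.1 added), and with unnamed transcripts the difference of Mapt was 1.62.

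For Map2 the size of the difference depended on transcripts without a name. All 6 samples held unnamed transcripts that begin 130063 to 130175 bases upstream of the first named start and end with the gene. These were at 6.92, 7.47 and 7.56 FPKM in SCPs and 8.07, 5.59 and 4.88 in RSCs, so the groups overlapped and the means were 1.18-fold apart. With all unnamed transcripts Map2 was at 15.3, 15 and 15.8 in SCPs and 8.07, 5.59 and 6.14 in RSCs, and it remained higher in SCPs but below 4-fold (log2 fold change -1.12, SE 0.14, adjusted p = 0.00062). Of 14 named Map2 transcripts, the 11 longer than 9000 bases, which have 9290 to 13564 bases, were listed at 0 in every sample. SCP 2 held an unnamed transcript of 10486 bases at 1.61 FPKM. The named transcript of 5402 bases, at 4.93, 3.59 and 5.01 in SCPs and 0 in RSCs, was marked LOWDATA by Cufflinks in all 6 samples.

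Tubb3, the neuronal beta-tubulin detected by antibodies to beta-III tubulin, was at 32.0, 21.3 and 22.0 FPKM in SCPs and 23.7, 17.3 and 18.3 in RSCs. The groups overlapped, and no difference was called (log2 fold change -0.32, 95% interval -0.82 to 0.19, adjusted p = 0.26). Gap43, a growth cone protein that injured axons and Schwann cells of cut nerves are both known to express, was at 6.70, 5.75 and 8.47 in SCPs and 14.1, 14.7 and 18.6 in RSCs. Every RSC sample was above every SCP sample, 2.26-fold in the means (1.08, SE 0.19, adjusted p = 0.0052).

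By named transcripts, Uchl1 had the highest level of the 37 genes in both groups, while with unnamed ones Dpysl3 reached a like level in SCPs. It encodes the ubiquitin hydrolase known as PGP9.5, a general marker of nerve fibers. It was at 147, 127 and 105 FPKM in SCPs and 94.1, 96.0 and 96.9 in RSCs, above 95.7% and 93.8% of the tested genes by the group means. The groups did not overlap, but the difference was not called (log2 fold change -0.38, 95% interval -0.71 to -0.06, adjusted p = 0.054). It was called without SCP 3 (-0.51, adjusted p = 0.0097) and after quantile normalization (-0.49, adjusted p = 0.011). Nsg1, an endosomal protein of neurons, was at 18.7, 14.56 and 18.6 in SCPs and 12.4, 14.55 and 10.1 in RSCs. Its groups were apart only by the small gap between SCP 2 and RSC 2, and it was not called (-0.46, 95% interval -0.90 to -0.02, adjusted p = 0.082).

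The remaining effectors were too low for the test. Stmn3, a stathmin like Stmn2, and Tagln3, an actin-binding protein of neurons, were at 0.213 to 1.21 FPKM in SCPs and listed at 0 in all RSC samples. Ina, the neuronal intermediate filament internexin, was at 4.37 in SCP 1 and at 0 in the other 5 samples. The synaptic vesicle and release genes Snap25, Syt1, Syt4 and Syp reached 2.0 in SCPs and 1.29 in RSCs, and all 4 overlapped between the groups. Syt1, the calcium sensor of vesicle release, was at 0.356, 0 and 0 in SCPs by name and at 1.16, 1.66 and 1.82 with unnamed transcripts, while no RSC sample exceeded 0.0474 in either table.

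The effectors varied among the SCP samples as well. The 23 effector genes summed to 347, 284 and 254 FPKM in SCP 1, 2 and 3 and to 167, 176 and 182 in RSC 1, 2 and 3. SCP 1 was the highest SCP sample for 15 of the 22 effectors above 0 there, and for 21 of the 34 genes of the whole set above 0 there (61.8%), while it was the highest for 38.5% of the 12753 tested genes above 0 in an SCP sample. The muscle genes ran the other way, with SCP 3 the highest SCP sample for all 5. The 8 autonomic genes summed to 7.34, 10.7 and 5.91 in SCPs and 1.57, 2.71 and 1.06 in RSCs. These orders among samples are descriptions without a test.

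Other genes of the same functions were taken from lists chosen by function. Of 18 further neurogenic factors found by name, 3 entered the test. Of these, 1 was higher in SCPs and 0 in RSCs, beside 22.4% and 18.1% of all tested genes. With unnamed transcripts, 1 was higher in SCPs and 1 in RSCs, beside 34.2% and 23.2% of the genes tested there. The one in RSCs was Runx3, by named transcripts at 7.47, 0 and 0 FPKM in RSCs. With unnamed ones it was at 0.501, 0.156 and 0.176 in SCPs and 7.47, 6.70 and 6.56 in RSCs (log2 fold change 2.64, SE 0.17, adjusted p = 3.1e-05). Of the factors on this list, 14 were listed at 0 in every RSC sample and 3 of them also in every SCP sample.

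Of 22 further autonomic genes, 7 entered the test, of which 3 were higher in SCPs and 2 in RSCs, beside 22.4% and 18.1% of all tested genes. With unnamed transcripts, 3 were higher in SCPs and 3 in RSCs, beside 34.2% and 23.2% of the genes tested there. The gene added in RSCs was Slc18a2, then at 4.27, 5.35 and 5.36 FPKM in SCPs and 8.89, 12.0 and 13.1 in RSCs (log2 fold change 1.03, SE 0.17, adjusted p = 0.0020). Ddc, the decarboxylase that makes dopamine, was at 12.7, 12.1 and 15.3 FPKM in SCPs and 0.125, 0.343 and 0.0866 in RSCs (log2 fold change -3.60, SE 0.20, adjusted p = 7.5e-05). Dlk1, a Notch-related membrane protein of chromaffin cells and of much embryonic mesenchyme, was at 95.4, 113 and 200 in SCPs and 4.44, 5.68 and 4.11 in RSCs (-4.51, SE 0.29, adjusted p = 0.00013). Neither Ddc nor Dlk1 overlapped between the groups, and the third gene higher in SCPs was Npy, neuropeptide Y (-2.46). Pcsk1, a prohormone convertase, was at 1.05, 2.99 and 3.62 in SCPs and 56.0, 55.5 and 50.4 in RSCs (4.03, SE 0.32, adjusted p = 0.00026). Gch1, which makes the cofactor of tyrosine hydroxylase, was at 0.843, 1.37 and 0.889 in SCPs and 8.64, 6.30 and 6.43 in RSCs (2.0, SE 0.22, adjusted p = 0.00089). Pcsk1 and Gch1 were also free of overlap.

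Of 46 further effector genes, 29 entered the test, 4 were higher in SCPs and 6 in RSCs, beside 22.4% and 18.1% of all, and their median log2 fold change was -0.05. Bex2, a small brain-expressed protein, was at 52.1, 32.5 and 36.6 FPKM in SCPs and 0.359, 0.663 and 0.527 in RSCs (-4.75, SE 0.22, adjusted p = 4.6e-05). Gng3, a G protein subunit of neurons, was at 6.04, 7.25 and 6.46 in SCPs and listed at 0 in RSCs (adjusted p = 0.00014), and the other 2 were Dpysl5 and Nsg2. Thy1, a membrane glycoprotein of neurons that fibroblasts and lymphocytes also carry, was at 1.07, 3.41 and 5.14 in SCPs and 18.7, 50.8 and 49.9 in RSCs (3.29, SE 0.55, adjusted p = 0.0043). Map1b, a microtubule-associated protein of growing axons, was at 12.2, 15.5 and 7.90 in SCPs and 50.4, 46.7 and 39.5 in RSCs (1.90, SE 0.24, adjusted p = 0.0016). With unnamed transcripts 34 were tested, 13 higher in SCPs and 9 in RSCs, beside 34.2% and 23.2% of all genes tested there.

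Of 13 genes of REST and its corepressors, all 13 were tested, 7 were higher in SCPs and 0 in RSCs, beside 22.4% and 18.1% of all tested genes, with a median log2 fold change of -0.86. Rest was at 26.6, 23.4 and 18.7 FPKM in SCPs and 13.1, 11.5 and 11.5 in RSCs, so this repressor was itself higher in SCPs (-0.86, SE 0.16, adjusted p = 0.0062). Rcor2, a corepressor, was at 67.7, 46.7 and 50.8 in SCPs and 3.44, 3.12 and 4.19 in RSCs (-3.60, SE 0.18, adjusted p = 5.9e-05). Kdm1a, the histone demethylase LSD1, was at 39.5, 45.8 and 41.0 in SCPs and 7.84, 0 and 7.10 in RSCs (-3.37, SE 0.85, adjusted p = 0.020), and with unnamed transcripts its difference was -1.24. None of these 3 overlapped between the groups.

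Of 7 tested genes of the HES, HEY and ID families, which encode inhibitors of proneural factors, 2 were higher in SCPs and 1 in RSCs, beside 22.4% and 18.1% of all tested genes. Hes1, an effector of Notch, was at 55.3, 59.3 and 44.6 FPKM in SCPs and 19.0, 4.71 and 9.06 in RSCs (log2 fold change -2.36, SE 0.45, adjusted p = 0.0072). With unnamed transcripts Hes1 was at 96.3, 84.4 and 44.6 in SCPs and 19.0, 28.8 and 16.2 in RSCs, below 4-fold (-1.74, SE 0.33, adjusted p = 0.0035). Hey2, another effector of Notch, was at 7.04, 18.9 and 17.7 in SCPs and 0.846, 0.942 and 1.27 in RSCs (-2.84, SE 0.39, adjusted p = 0.0020). Id2, which binds and holds back partners of proneural factors, was at 33.8, 25.3 and 31.7 in SCPs and 63.8, 54.3 and 51.0 in RSCs (0.88, SE 0.15, adjusted p = 0.0043). The groups of these 3 genes did not overlap, but with unnamed transcripts those of Id2 did and it was not called (0.70, adjusted p = 0.046).

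**Figure D4:**
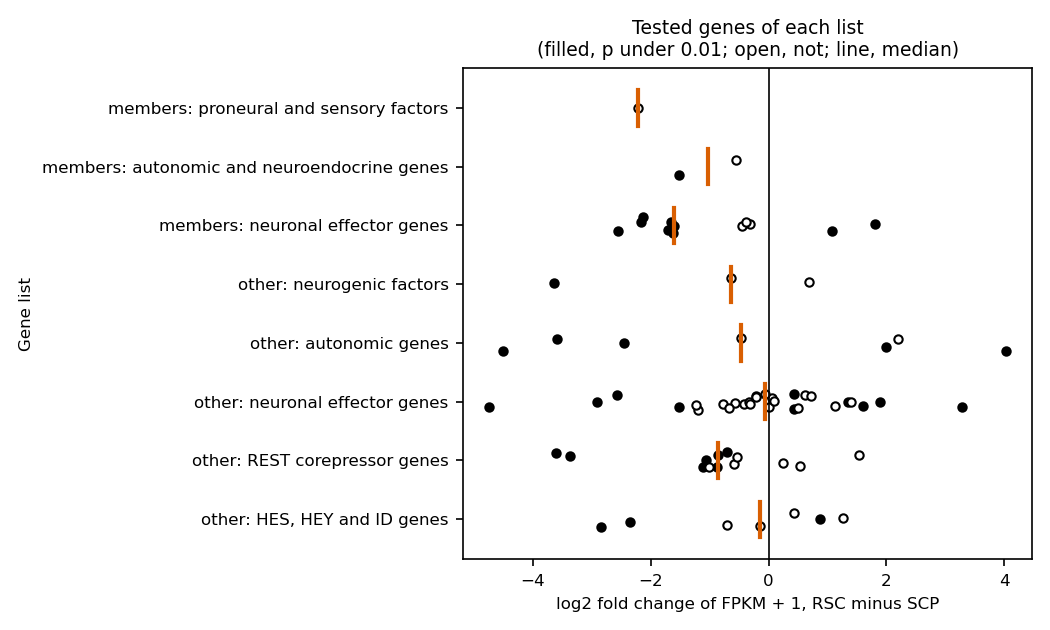
Log2 fold change of FPKM + 1, RSC minus SCP, of each tested gene (circles, filled where p was under 0.01) in the 3 classes of the set and in 5 further lists, with the median of each list as a vertical line. The medians of the effectors of the set and of the further effectors are -1.61 and -0.05 here. Over all genes of these lists above 0 in a sample, they are -0.52 and -0.15. Several effectors of the set entered the test only through their level in SCPs. The genes outside the test were low, and the size of their differences depends on the 1 added before the logarithm. The part of the filter and of the added 1 in the change of the medians was not tested.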

How the data were processed

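RNA of 3 SCP and 3 RSC preparations was sequenced by the authors as stranded, paired-end mRNA libraries and processed with TopHat2 2.1.0 and Cufflinks 2.2.1 on rn6 (versions per the submitters' processing notes). The authors deposited, for each sample, FPKM and read coverage (signal) of every transcript, with no counts, so no count test was run. Here, FPKM of named transcripts was summed by symbol, leaving out 77 transcripts whose names had become dates. Transcripts that Cufflinks marked LOWDATA were kept at their listed FPKM. Genes were tested with limma 3.58.1 in R 4.3.3, with a variance trend and a pseudocount of 1, two-sided, with Benjamini-Hochberg adjustment. Calls used the study's thresholds, p under 0.01 and, for 4-fold, a log2 fold change over 2. On simulated data for this comparison over 13003 genes, 97.5% of 200 genes changed by a log2 fold change of 3 were recovered, and 1.19% of the others were called. The changed genes were drawn only from well expressed ones, and no tested gene of the set changed by 3 on named transcripts. The share recovered therefore does not describe genes as low as most of this set. Unnamed transcripts were assembled by Cufflinks separately in each sample and were added to the gene of the same locus that they overlapped most. The coverage served only for relative depth.

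The genes and lists were chosen with earlier results of these data known. Values in every sample are given for called genes, for genes reaching a mean of 10 FPKM in a group, and, from each further list, for the 2 genes that changed most each way among called ones, plus Rest. A few genes that fall under these criteria are not reported here. Values of other genes, and the promoter of Scg2, were chosen after their values were seen. Alternatives tried were no filter, a mean of at least 5 FPKM, a pseudocount of 0.1, 2 other scalings, no trend, adjusted p, the highest transcript, unnamed transcripts, zeros left out, a replicate block and each sample left out.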

Additional observations from a re-analysis of the deposited data

How the results depend on the processing

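Of the 15 tested genes, none changed direction under any alternative. Over 230 comparisons of a gene with an alternative, 215 kept the direction and the side of the p threshold, 10 lost the call, all of them for Dpysl3 or Rtn1, and 5 gained one, all of them for Isl1 or Uchl1. Dpysl3 lost its call after median-of-ratios scaling (-1.50), and Isl1 gained one when the 0 of SCP 2 was left out (-3.32).

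The 8 genes higher in SCPs numbered 6 to 8 when a sample was left out and 3 with a mean of at least 5 FPKM, a filter that keeps fewer of them, and 7 to 10 under the other alternatives. The 2 genes higher in RSCs numbered 1 with the highest transcript per gene and 1 with a mean of at least 5 FPKM. The 3 genes over 4-fold higher in SCPs numbered 2 to 4 when a sample was left out, 5 with the highest transcript, 1 with a mean of at least 5 FPKM, 6 with a pseudocount of 0.1 and 5 with unnamed transcripts. For those over 4-fold higher in RSCs the count was 0 to 1 when a sample was left out and 1 with a pseudocount of 0.1. Median-of-ratios scaling moved the median of all genes from -0.17 to 0.0053.

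With the replicate number as a replicate block, 7 genes were higher in SCPs and 2 in RSCs, and Dpysl3 lost its call (adjusted p = 0.032). Correlations between the deviations of samples of the same number were near 0 (0.0435, -0.00491 and 0.0259). SCP 1 and SCP 3 correlated best with the RSC sample of their own number, and SCP 2 did not. All correlations lay between -0.0476 and 0.0435, and the numbers were not taken as pairs. Without counts or total depth, a value of 0 has no upper limit, and the 22 genes too low for the test can be compared only by their values.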
